A study of Arabidopsis thaliana with 28 samples.

Results

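Anti-H3 ChIP-seq peaks, the sites where an antibody against histone H3 recovered more DNA than the peak caller's background, were described in diploid Arabidopsis (Col-0) and in an autotetraploid line (4 × Col-0). All peaks on chromosomes 1 to 5 of both deposited anti-H3 lists were taken, 21509 in Col-0 and 23887 in 4 × Col-0, together 45396 of the 139119 peaks in the 10 peak lists of the series. A peak was called shared when it overlapped a peak of the other genotype by at least 1 bp, and was otherwise called Col-0 only or 4 × Col-0 only. Col-0 is the Columbia wild type, and 4 × Col-0 is a genome-doubled line raised from Col-0 with colchicine, so that both carry the same genome sequence at different copy number. Plants were grown on MS medium with sucrose under 16 h light and 8 h dark after 3 days in the cold, and aerial parts were collected at 10 days. Hi-C, RNA-seq and ChIP-seq for H3K4me3 and H3K27me3 were made from such seedlings. There was 1 anti-H3 library per genotype, so no difference between the genotypes could be tested and no replicate error can be given. Intervals on shares are 95% Wilson intervals, which cover counting error only, and neighbouring peaks are not independent of each other.

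DNA in the nucleus is wound around nucleosomes, each a core of histone proteins that includes histone H3. An antibody against the unmodified part of H3 recovers nucleosomes whatever their modifications, so its reads serve as a measure of nucleosome density and as a control for marks such as H3K4me3, found at the start of transcribed genes, and H3K27me3, found over genes silenced by Polycomb. GC-rich DNA is known to wrap around nucleosomes more readily than runs of A or T, and gene starts usually lie in a nucleosome-depleted stretch. The anti-H3 chromatin had been sheared by sonication and not cut by a nuclease, so that a peak marks a region and not the edge of a nucleosome.

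The 10 strongest shared peaks held GC-rich coding stretches dense in a few short words as well as 2 pericentromeric stretches between genes. In windows of 121 bp centred on summits, these 2 had 34.7% and 28.1% GC, against 36.0% over all chromosomes. Of the 10 windows, 7 are shown for that contrast. The other 3 windows are not shown. Those in AT5G10340 (coding exon, 55.4% GC) and AT2G16586 (untranslated exon, 52.9% GC) held none of the words marked here, and the window near AT5G38820 was intergenic with 67.8% GC and held them over 56 of its bases. Capitals mark the word GGTGGT with its complement (read as ACCACC) and the word CCGGCG with its complement (read as CGCCGG), 6-base words that were picked after these windows had been read and that can overlap each other. The windows were read from the plus strand of TAIR10.1, whose nuclear chromosomes have the lengths of TAIR10. They lie at chr5:17076307-17076427 (AT5G42635, coding exon and intron), chr1:21180547-21180667 (AT1G56530, coding exon), chr3:18630274-18630394 (AT3G50250, coding exon), chr3:15506934-15507054 (AT3G43583, coding exon) and chr2:17946176-17946296 (AT2G43150, coding exon). The 2 between genes lie at chr3:13853859-13853979 and chr5:12877580-12877700.
AT5G42635: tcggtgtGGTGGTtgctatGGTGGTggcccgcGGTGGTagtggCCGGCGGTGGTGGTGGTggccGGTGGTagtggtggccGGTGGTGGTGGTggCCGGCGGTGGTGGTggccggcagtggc
AT1G56530: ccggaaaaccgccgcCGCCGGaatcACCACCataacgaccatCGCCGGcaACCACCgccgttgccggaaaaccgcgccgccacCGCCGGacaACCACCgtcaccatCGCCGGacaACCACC
AT3G50250: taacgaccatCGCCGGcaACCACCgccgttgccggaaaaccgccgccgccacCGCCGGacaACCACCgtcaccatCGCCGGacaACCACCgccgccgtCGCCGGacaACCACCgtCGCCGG
AT3G43583: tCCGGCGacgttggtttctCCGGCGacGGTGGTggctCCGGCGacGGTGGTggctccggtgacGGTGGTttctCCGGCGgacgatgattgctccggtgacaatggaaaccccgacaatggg
AT2G43150: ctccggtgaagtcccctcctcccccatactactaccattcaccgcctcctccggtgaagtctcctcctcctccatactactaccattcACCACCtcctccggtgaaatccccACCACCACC
Chromosome 3 pericentromere: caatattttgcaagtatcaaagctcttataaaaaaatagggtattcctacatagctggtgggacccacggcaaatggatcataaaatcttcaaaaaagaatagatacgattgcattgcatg
Chromosome 5 pericentromere: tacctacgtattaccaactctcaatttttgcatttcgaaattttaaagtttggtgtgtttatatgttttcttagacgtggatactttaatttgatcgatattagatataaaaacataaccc
The windows in AT1G56530, a hydroxyproline-rich glycoprotein gene, and AT3G50250, an uncharacterized gene on another chromosome, shared an identical run of 47 bp. Neither of the 2 pericentromeric windows between genes held any of the capital words. The window in AT3G43583 was also pericentromeric, and it had 65.3% GC with the words over 42 of its bases.

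The strongest peaks were strong in both genotypes. The peak on the chromosome 3 pericentromere had a fold enrichment over the peak caller's background (its signalValue) of 13.9 in Col-0 and 18.2 in 4 × Col-0. Its summits were 1 bp apart at 13853918 and 13853919, and its nearest gene, AT3G33103, was 11455 bp away. The peak on the chromosome 5 pericentromere had 14.6 and 14.9, and the nearest gene, AT5G34431, was 10554 bp away. These were the highest values of each list, and they sat on DNA of 36.1% and 30.6% GC at the Col-0 summit. They were also repetitive. None of 30 sampled 31-base words of the chromosome 3 window occurred once in the chromosomes, and the most frequent occurred 114 times. In the chromosome 5 window 10 of 30 words occurred once, with a maximum of 25 copies. Repeats were not limited to these 2 peaks. At AT2G16586 none of 30 words occurred once, with a maximum of 8 copies, and at AT3G50250 and AT1G56530 7 and 17 did. At the rest of the 10 strongest peaks, from 21 (AT5G10340) to 30 of 30 words occurred once. How reads of repeats were placed is not given in the sources used here, and its part in these values was not tested.

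The third strongest peak lay in AT5G42635, which encodes a glycine-rich protein, with 13.5 and 14.0 (Col-0 first, here and below) on DNA of 72.8% GC. AT5G10340, an F-box gene, had 12.2 and 13.3, and AT2G16586, an uncharacterized gene, 12.5 and 13.2. AT1G56530 had 13.1 in Col-0 and 11.9 in 4 × Col-0. The peak 910 bp from AT5G38820, an amino acid transporter gene, had 11.5 and 12.6, and that in AT2G43150, which encodes a proline-rich extensin-like cell wall protein, 12.3 in each. AT3G50250 had 12.2 and 11.2, and AT3G43583 12.2 and 11.3. Of these 8 peaks, 7 lay in an annotated gene, and 5 of the genes were listed at 0 FPKM or under 0.02 FPKM in both genotypes. AT2G43150 was the highest of them in the authors' pooled table, at 201 FPKM in Col-0 and 99.5 FPKM in 4 × Col-0, and AT2G16586 had 11.0 and 3.65 FPKM.

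Most peaks were found in both genotypes. In Col-0, 20716 of 21509 peaks (96.3%, 96.1 to 96.6%) overlapped a 4 × Col-0 peak. In 4 × Col-0, 21046 of 23887 peaks (88.1%, 87.7 to 88.5%) overlapped a Col-0 peak. The lists covered 9.53% of the chromosomes in each genotype, 11.4 Mb each, and 88.5% of the covered bases of either list lay under the other. The counts of shared peaks were close, so that the gap between these shares in the full lists went with the length of the lists. When the 4 × Col-0 list was cut to its 21509 peaks of lowest q-value, 91.0% of Col-0 and 91.8% of 4 × Col-0 peaks were shared. Shares near each other follow from the counts once the lists are equally long. Of the peaks, 793 were Col-0 only and 2841 were 4 × Col-0 only.

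Peaks in 1 genotype only were short and weak. The median length was 278 bp for Col-0 only and 239 bp for 4 × Col-0 only, against 426 bp and 403 bp for the shared peaks of each list. The median fold enrichment was 2.05 and 2.50, against 3.69 and 3.86 for shared peaks, and the highest values were 3.44 for Col-0 only and 4.43 for 4 × Col-0 only. None of the 793 Col-0 only peaks reached the median fold enrichment of its list, and 67 of the 2841 peaks of 4 × Col-0 only did. In the 5 highest of the 10 equal groups of Col-0 peaks ranked by fold enrichment, every peak was shared. In the lowest group 78.4% were shared in Col-0 and 72.2% in 4 × Col-0, where the next group had the smallest share, 66.3%. The nearest peak of the other genotype was at a median of 788 bp from a Col-0 only peak and 1648 bp from a 4 × Col-0 only peak.

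The classes differed in place. Pericentromeres, set here as the gene-poor stretch of each chromosome, made up 16.0% of the genome and held 58.4% of the Col-0 only summits but 18.0% of the 4 × Col-0 only summits, beside 24.1% and 24.7% of the shared summits. With lists of equal size, 55.3% of 1942 Col-0 only summits and 14.4% of 1754 summits of 4 × Col-0 only were pericentromeric. Only the 4 × Col-0 list was shortened for this, and its share of pericentromeric summits fell from 23.9% to 22.1%. Col-0 peaks whose partners were removed then counted as Col-0 only. The direction of the contrast was the same, but the equal lists are no separate check of it. With 1 library per genotype, ploidy and library cannot be told apart in this contrast.

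**Figure D1:**
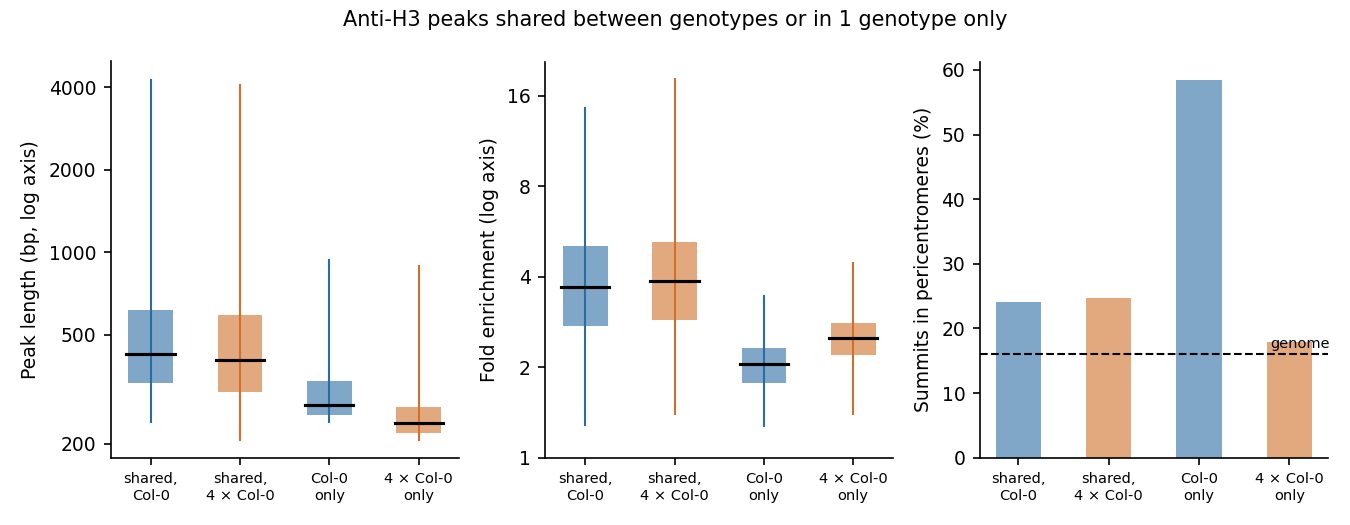
Length (bp), fold enrichment and share of summits in pericentromeres for anti-H3 peaks shared between genotypes or found in 1 genotype only; boxes are quartiles, black lines medians, thin lines the full range, and the dashed line is the share of the genome in pericentromeres (16.0%). Peaks in 1 genotype only are short and weak, and 58.4% of the Col-0 only summits are pericentromeric against 18.0% of the 4 × Col-0 only summits.

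The strongest peaks of 1 genotype only were modest. Among Col-0 only peaks the highest fold enrichments were 3.44 in AT1G63640, a nucleoside triphosphate hydrolase with a calponin homology domain, 3.43 in AT5G32293, 3.40 in AT3G42680, 3.23 in AT2G12100 and 3.19 in AT1G14225. AT5G32293, AT3G42680 and AT2G12100 are annotated as pseudogenes and lie in pericentromeres. Among 4 × Col-0 only peaks they were 4.43 in BKI1, an inhibitor of the brassinosteroid receptor kinase, 4.28 in AT1G63290, 4.21 in GH9B18, a glycosyl hydrolase, 4.17 at 1864 bp from AT3G46370, a leucine-rich repeat kinase gene, and 4.07 at 951 bp from ENT7, a nucleoside transporter. All 5 lay outside the pericentromeres. BKI1 was listed at 9.68 FPKM in Col-0 and 9.81 FPKM in 4 × Col-0, AT1G63290 at 62.0 and 54.6 FPKM, and AT1G63640 at 1.26 and 2.61 FPKM.

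Where a peak of either list overlapped exactly 1 peak of the other, 19898 pairs could be compared. Fold enrichments of the pairs followed each other with a Pearson r of 0.95 and a Spearman rho of 0.94, given as a description, since all points come from the same pair of libraries. The median log2 ratio of 4 × Col-0 over Col-0 was 0.05, with 5% of pairs below -0.24 and 5% above 0.39. No pair differed by 2-fold or more, the extremes being -0.88 and 0.91. Summits lay at a median of 23 bp from each other, and 92.4% lay within 100 bp. Paired peaks were 420 bp long in Col-0 and 399 bp in 4 × Col-0 at the median, and 68.1% were longer in Col-0. The shortest peak also differed between the lists, 241 bp in Col-0 and 207 bp in 4 × Col-0. The part of that lower limit in the lengths was not tested. The median log2 ratio was 0.02 in pericentromeres (4589 pairs) and 0.07 in arms (15309 pairs), and 54.6% and 64.4% of the pairs were higher in 4 × Col-0.

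Over whole lists, the median length was 419 bp in Col-0 and 375 bp in 4 × Col-0, with the shortest peak at 241 bp and 207 bp. The median fold enrichment was 3.61 and 3.60, and ranged from 1.28 to 14.6 and from 1.40 to 18.2. The median −log10 q-value was 25.9 and 19.8, and the weakest peaks stood at 1.45 and 1.62. Peaks longer than 1000 bp made up 7.81% and 6.30%. The longest Col-0 peak, 4265 bp, covered AT4G10580, an annotated pseudogene, and the longest in 4 × Col-0, 4078 bp, covered AT3G22142, a lipid-transfer and 2S albumin family gene, where Col-0 had a peak of 4088 bp. Neighbouring summits were 3324 bp apart at the median in Col-0 and 3068 bp in 4 × Col-0, and 5% were closer than 725 bp and 681 bp. Counts of summits in 2385 bins of 50 kb followed each other between the genotypes with a Pearson r of 0.95 across bins.

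Peaks were dense but weak in the pericentromeres. These regions held 5448 of the Col-0 summits (25.3%, 24.8 to 25.9%) and 5708 of the 4 × Col-0 summits (23.9%, 23.4 to 24.4%), which gave 286 and 299.6 summits per Mb against 160.5 and 181.6 per Mb in arms. The ratio of the densities ranged from 1.56 on chromosome 1 to 1.88 on chromosome 2 in Col-0, and from 1.40 on chromosome 1 to 1.74 on chromosome 5 in 4 × Col-0. The median fold enrichment was 2.58 and 2.59 in pericentromeres and 4.06 and 4.02 in arms. Of the weakest 10% of peaks, 72.7% in Col-0 and 67.8% in 4 × Col-0 were pericentromeric, and of the strongest 10% of peaks 4.46% and 4.02%. The bin with most summits, chr3:13600001-13650000, held 28 in each genotype and no protein-coding gene. The strongest 10% of the Col-0 list held 6 peaks, and that of the 4 × Col-0 list 12, with under 40% GC at the summit, and all of them were pericentromeric.

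A stretch of mitochondrial DNA inserted in chromosome 2 was among the densest sites. It was located by matching the mitochondrial genome to the chromosomes, at chr2:3250465-3509765, and held 122 Col-0 peaks and 112 peaks of 4 × Col-0, or 470.5 and 431.9 per Mb, against 283.4 and 297.8 per Mb in the rest of the pericentromeres. Their median fold enrichment was 1.84 and 1.87, and 66.4% and 59.8% of them were under 2, against 6.93% and 5.86% over whole lists. The highest peak there reached 11.2 in Col-0 and 8.76 in 4 × Col-0. In this stretch 82.0% of the Col-0 peaks and 94.6% of the 4 × Col-0 peaks were shared. Reads from mitochondria match the same sequence, and their part in these peaks was not tested.

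Summits lay mostly in coding exons. In Col-0, 18290 summits (85.0%, 84.6 to 85.5%) and in 4 × Col-0 20348 summits (85.2%, 84.7 to 85.6%) were inside an annotated gene, whereas genes covered 59.1% of the genome. Coding exons held 63.6% of the Col-0 and 64.9% of the 4 × Col-0 summits on 28.3% of the genome. Introns held 1.03% and 0.963% on 15.2% of the genome, and untranslated exons 1.07% and 1.13% on 10.6%. Annotated pseudogenes held 19.6% and 18.5% on 8.75% of the genome. Intergenic DNA, 35.9% of the genome, held 13.7% and 13.6%. In arms 92.4% and 92.1% of summits were in genes, and in pericentromeres 63.3% and 63.2%. Median fold enrichment was highest in coding exons, 4.24 and 4.17, and lowest in pseudogenes, 2.59 and 2.58.

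**Figure D2:**
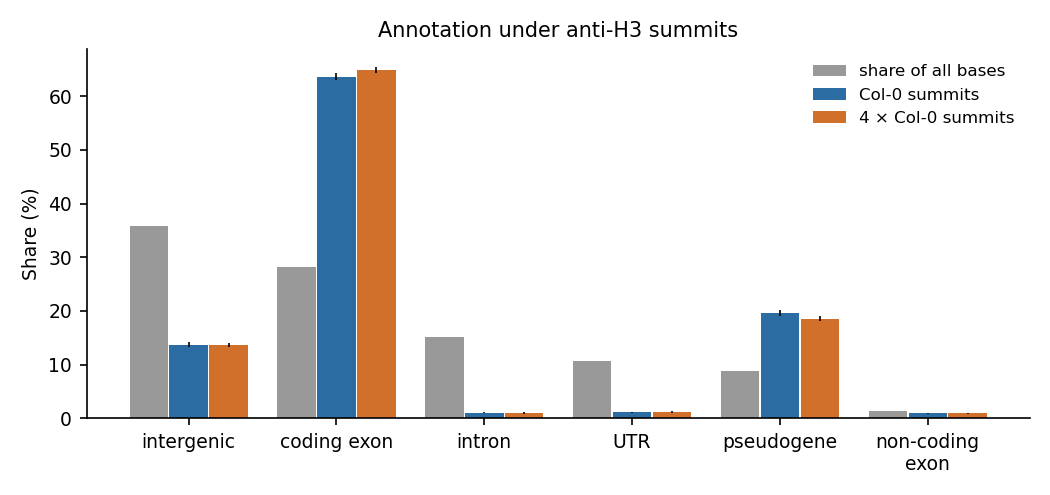
Share (%) of all genome bases and of Col-0 and 4 × Col-0 anti-H3 summits in each annotated feature; error bars are 95% Wilson intervals. Coding exons hold 63.6% and 64.9% of the summits on 28.3% of the bases, and introns hold 1.03% and 0.963% on 15.2%.

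The summits were GC-rich, and the 2 features with most summits per Mb, coding exons and pseudogenes, were the ones richest in GC. Within 73 bp of the summit the GC content averaged 51.3% ± 4.71 (SD over 21509 peaks) in Col-0 and 51.1% ± 4.66 (SD over 23887 peaks) in 4 × Col-0, against 36.0% over all chromosomes. At 300 bp from the summit it had dropped to 38.3% on the side of lower coordinates in each list, and at 1000 bp on that side to 37.2%. The summit was richer in GC than the mean of its flanks in 97.9% of the peaks of either list. GC rose with peak strength, from 48.8% in the weakest 10% of peaks to 55.9% in the strongest 10% in Col-0 and from 48.8% to 55.9% in 4 × Col-0. Across peaks of a list, fold enrichment and GC had a Pearson r of 0.48 (Col-0) and 0.50 (4 × Col-0), where the points share a library. Coding exons had 44.0% GC, pseudogenes 41.3%, introns 32.1% and intergenic DNA 30.5%.

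Counted per Mb of windows of the same GC content, the contrast between features depended on the GC class. Over all windows, Col-0 had 406.5 summits per Mb in coding exons, 405.5 in pseudogenes, 69.0 in intergenic DNA, 18.1 in untranslated exons and 12.2 in introns. Windows of 30 to 35% GC held 3.38 summits per Mb in Col-0 and 3.34 in 4 × Col-0, windows of 40 to 45% GC 62.0 and 69.8, windows of 50 to 55% GC 2721 and 2995, and windows of 55 to 60% GC 4625 and 4896. At 50 to 55% GC, coding exons held 3026 Col-0 summits per Mb, introns 2507, intergenic DNA 2703, pseudogenes 1859 and untranslated exons 1350. At 45 to 50% GC, the order was different, with 1266 per Mb in intergenic DNA, 950.5 in pseudogenes, 519.8 in coding exons, 486.8 in introns and 155.9 in untranslated exons. The spread was wide again at lower GC, with 171.2 per Mb in intergenic DNA, 163.4 in pseudogenes, 27.4 in introns, 24.8 in coding exons and 8.97 in untranslated exons at 40 to 45% GC. The features thus came close to each other only in GC-rich windows, and intergenic DNA led from 30 to 50% GC. Arms and pericentromeres also changed order with GC. At 40 to 45% GC, Col-0 had 43.6 summits per Mb in arms and 152.4 in pericentromeres, and at 55 to 60% it had 5131 in arms and 3344 in pericentromeres. In 4 × Col-0 these values were 51.0 and 162.5, and 5537 and 3271. Density of nucleosomes on GC-rich DNA and better recovery of GC-rich fragments cannot be told apart in these lists.

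**Figure D3:**
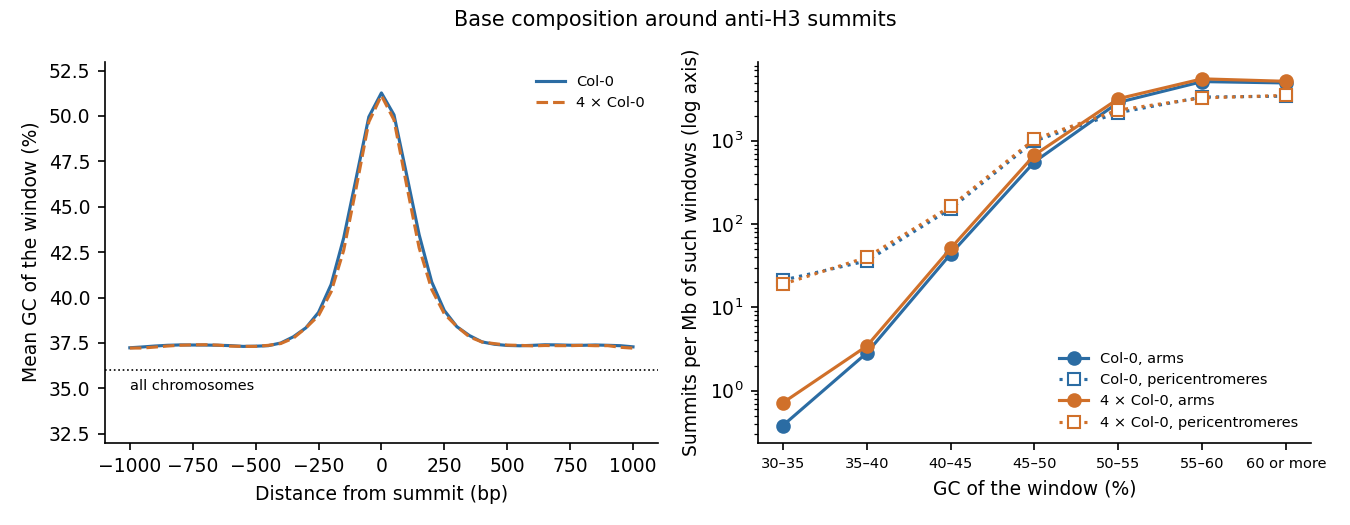
Left, mean GC (%) of windows reaching 73 bp to each side at distances from the summit (bp); right, summits per Mb of genome windows of each GC class (log axis), in arms (filled) and pericentromeres (open). GC peaks at 51.3% in Col-0 and 51.1% in 4 × Col-0 at the summit, and the density of summits rises with GC in both kinds of region up to 55 to 60% GC.

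Short words followed the same pattern. GGTGGT or its complement ACCACC was found in 18.7% of the Col-0 and 18.3% of the 4 × Col-0 summit windows, against 5.32% of all genome windows of that length. CCGGCG or CGCCGG was found in 11.2% and 11.5%, against 1.70%. In the strongest 10% of peaks the first pair of words was in 28.3% and 29.4% of windows and the other pair in 17.6% and 20.1%. These words had been picked from windows of the strongest peaks, and the genome windows were not matched for GC. The shares thus cannot tell the words apart from GC content. Runs of AAAAA or TTTTT were found in 15.9% and 16.0% of summit windows, in 52.9% and 52.6% of windows centred 373 bp away at higher coordinates, and in 58.0% of all genome windows. GAAGAA or TTCTTC, a word of like length with less GC, was found in 18.7% and 18.6%, against 22.6% of all windows.

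Along genes, summits were rare at the gene start and most frequent shortly past it. Over 21707 protein-coding genes of at least 1 kb, the fewest summits lay 100 to 150 bp upstream of the start, 0.369 per 1000 genes per 50 bp in Col-0 and 0.415 in 4 × Col-0. The most lay 200 to 250 bp downstream, 37.0 and 40.2 per 1000 genes. At 950 to 1000 bp into the gene the values were 9.03 and 10.2, and in the bin farthest upstream 7.65 and 8.11. At the gene end the lowest bin was the 50 bp past the end, with 0.322 and 0.230 per 1000 genes, and the highest lay 350 to 400 bp before it, with 22.4 and 25.5. Mean GC over the same genes was lowest, 31.1%, 200 to 250 bp upstream of the start, and highest, 42.0%, 150 to 200 bp downstream of it. The low bins of GC and of summits upstream of the start were thus near each other but not the same.

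**Figure D4:**
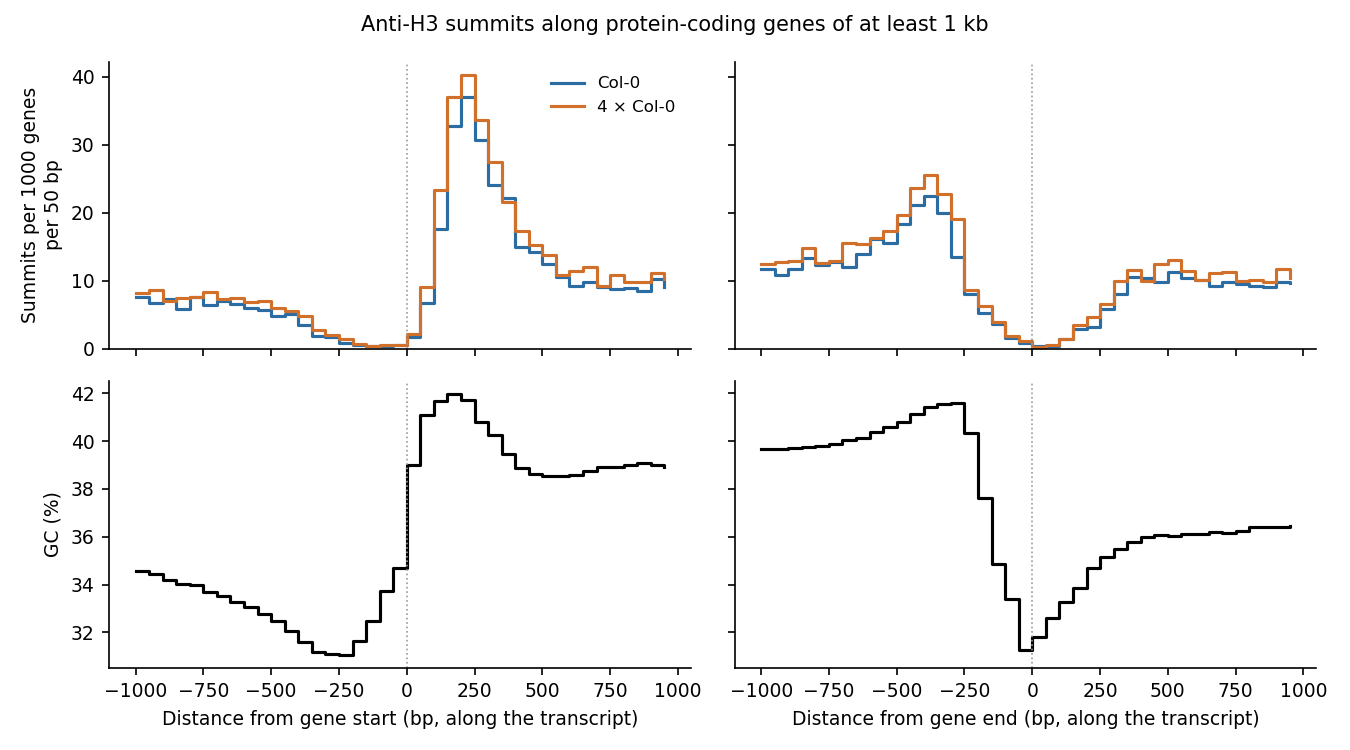
Top, anti-H3 summits per 1000 protein-coding genes of at least 1 kb in bins of 50 bp around the gene start (left) and gene end (right), for Col-0 and 4 × Col-0; bottom, mean GC (%) of the same bins. Summits reach 37.0 and 40.2 per 1000 genes at 200 to 250 bp past the start and fall to 0.369 and 0.415 at 100 to 150 bp before it.

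Summits inside H3K4me3 peaks were more frequent than the area of those peaks, and inside H3K27me3 peaks slightly so. The H3K4me3 lists held 29.4% and 27.1% of the Col-0 summits on 8.65% and 7.53% of the genome, and 27.2% and 29.4% of the 4 × Col-0 summits on 8.63% and 9.59%. The H3K27me3 lists held 16.1% and 16.7% of the Col-0 summits on 11.7% and 11.4% of the genome, and 15.2% and 15.8% of those of 4 × Col-0 on 12.4% and 12.0%. Col-0 only summits were in the H3K4me3 lists at 3.78% and 3.15%, and 4 × Col-0 only summits at 21.4% and 23.5%. Mark peaks were less GC-rich at their centres than anti-H3 summits, 43.0 to 44.2% for H3K4me3 and 38.3 to 39.1% for H3K27me3. Within arm windows of like GC, the order inside and outside H3K4me3 peaks changed with GC. For replicate 1 of Col-0, windows of 40 to 45% GC had 10.8 summits per Mb inside and 49.0 outside, and windows of 50 to 55% GC had 2559 and 3193. At 55 to 60% GC the values were close, 5141 inside and 5112 outside, and at 60% GC or more they were 5557 and 3797. The other 3 H3K4me3 lists had the same order in these classes. Inside the H3K27me3 peaks of replicate 1 of Col-0 there were 3269 summits per Mb at 50 to 55% GC against 2793 outside, and 6205 against 4896 at 55 to 60% GC. The study names anti-H3 reads as the control for the marks, so overlap of the lists and the subtraction of that control cannot be told apart.

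A large minority of genes held a summit. Of 33278 nuclear genes in the expression table, 14161 held a Col-0 summit (42.6%) and 15360 one of 4 × Col-0 (46.2%), with 13904 genes in common. Another 257 genes held a summit in Col-0 only and 1456 in 4 × Col-0 only. Longer genes held one more often, from 11.2% of genes under 500 bp to 62.1% of genes over 5000 bp in Col-0. The genes with a Col-0 summit only were 54.5% protein-coding, had a median of 0 FPKM and were listed at 0 in Col-0 for 54.9%. Those with a 4 × Col-0 summit only were 87.4% protein-coding, with a median of 4.03 FPKM in Col-0 and 4.56 FPKM in 4 × Col-0. Genes with a summit in both were 81.2% protein-coding, with medians of 3.36 and 3.51 FPKM, and 24.6% were listed at 0 in Col-0. Genes with none were 79.2% protein-coding, with medians of 0.670 and 0.820 FPKM, and 35.8% were listed at 0 in Col-0. Of all 33278 genes, 26697 were protein-coding and 10171 were listed at 0 in Col-0.

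Genes with a summit were expressed more, and the size of that difference depended on which genes were compared. The median was 3.23 FPKM for genes with a Col-0 summit and 0.827 FPKM for genes without, a log2 ratio of 1.97 (the authors' pooled FPKM, with no error). The corresponding medians in 4 × Col-0 were 3.63 and 0.786 FPKM, a log2 ratio of 2.21. Among genes of 1 to 3 kb the log2 ratio was 0.66 (Col-0) and 0.70 (4 × Col-0), and among genes of at least 1 FPKM it was 0.33 and 0.22. Among protein-coding genes of 1 to 3 kb in arms, the share with a Col-0 summit was 34.4% (32.3 to 36.6%) for genes listed at 0, 37.9% under 1 FPKM, 42.5% from 1 to 10, 47.8% from 10 to 100 and 53.3% (50.3 to 56.3%) at 100 FPKM or more. In 4 × Col-0 the same classes had 38.2%, 42.8%, 47.7%, 51.7% and 55.0%. The share rose at each step in both genotypes in this set of genes. It did not among all genes of 1 to 3 kb, where it was 44.2% at 0 FPKM, 39.0% under 1 FPKM and 53.1% at 100 FPKM or more in Col-0. The corresponding shares were 46.5%, 43.4% and 54.7% in the tetraploid. Over all genes, the share of gene bases under peaks was highest for genes listed at 0, 21.2% and 19.9%, and lowest from 1 to 10 FPKM, 9.97% and 10.7%. Among protein-coding genes of 1 to 3 kb in arms it was instead highest at 100 FPKM or more, 19.4% and 18.5%. Genes of that set listed at 0 had 12.8% and 13.5% of their bases under peaks.

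Gene-body GC made a larger difference than expression. Among protein-coding genes of 1 to 3 kb, 15.9% of those under 36% GC and 96.5% of those of 44% GC or more held a Col-0 summit, and 18.4% and 97.4% held one of 4 × Col-0. At 40 to 42% GC, 36.2% of Col-0 genes under 1 FPKM and 64.1% of genes at 1 FPKM or more held a summit. At 36 to 38% GC the order was the other way, 21.3% and 16.6%. Thus genes at 1 FPKM or more held summits more often only in the classes above 38% GC. In 4 × Col-0 the shares were 40.8% and 69.5% at 40 to 42% GC and 23.2% and 20.5% at 36 to 38%.

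Changes of expression were rare in every class of genes. Of all 33278 genes, 0.604% rose by 2-fold or more in 4 × Col-0 and 0.4% dropped by 2-fold or more on the log2(FPKM + 1) scale, which understates the change of low genes. Among the 1456 genes with a 4 × Col-0 summit only, 9 were higher (0.618%) and 3 lower (0.206%). Among the 257 genes with a Col-0 summit only, 1 was higher and 0 were lower. Among the 13904 genes with a summit in both, 49 were higher (0.352%) and 73 lower (0.525%), and among the 17661 genes with none, 142 were higher (0.804%) and 57 lower (0.323%). With pooled FPKM values none of these counts has a test.

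Gene families differed in how often they held a summit, and part of that spread was also seen among all genes of the same length and GC. Of 30 genes for chlorophyll a-b binding proteins, which harvest light, and the RuBisCO small chain, which is part of the carbon-fixing enzyme, 28 held a summit in each genotype (93.3%). The share was 41.4% and 45.2% of all genes of those lengths, and 68.8% and 72.2% of all genes of those lengths and GC classes. Among 248 cytochrome P450 genes, which encode oxidising enzymes, 156 and 168 did (62.9% and 67.7%), beside 44.4% and 48.3% by length and 56.7% and 60.6% by length and GC. Histone genes held one in 27 and 28 of 52 (51.9% and 53.8%), beside 38.2% and 42.2% by length and GC. Heat shock genes did in 79 and 80 of 142 (55.6% and 56.3%), beside 52.8% and 56.9% by length and GC. Receptor-like kinase genes did in 143 and 165 of 265 (54.0% and 62.3%), beside 59.0% and 62.7% by length and GC, so that neither of these last families stood above genes of like GC in both genotypes. These values describe the families and carry no test.

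A few families held summits less often than genes of like length and GC. Among 128 genes for NBS-LRR proteins, the intracellular immune receptors of plants, 13 held a Col-0 summit (10.2%) and 23 one of 4 × Col-0 (18.0%), beside 53.1% and 57.4% of all genes of those lengths and 51.0% and 56.0% of all genes of those lengths and GC classes. Of 629 F-box genes, which encode substrate adapters of ubiquitin ligases, 106 and 126 did (16.9% and 20.0%), beside 41.4% and 45.0% by length and 38.5% and 42.8% by length and GC. MADS-box genes held one in 23 and 28 of 118 (19.5% and 23.7%), beside 42.8% and 46.3% by length and 37.0% and 40.2% by length and GC. Ribosomal protein genes, with a median of 108.7 FPKM in Col-0, did in 106 and 117 of 343 (30.9% and 34.1%), beside 41.2% and 44.8% by length. By length and GC the shares of all genes were 33.4% and 37.4%, so that the ribosomal protein genes were near them. The other transcription factors were near or above genes of like length and GC. Of 72 WRKY genes, 35 and 37 held a summit (48.6% and 51.4%), beside 43.6% and 47.5% by length and 32.4% and 36.4% by length and GC. Of 129 bHLH genes, 59 and 65 did (45.7% and 50.4%), beside 45.2% and 49.1% by length and 31.9% and 35.5% by length and GC. Of 176 MYB genes, 49 and 60 did (27.8% and 34.1%), beside 43.4% and 47.3% by length and 30.9% and 34.8% by length and GC.

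A few further families were added after the strongest peaks had been seen. Of 75 genes for glycine-rich proteins, 70 and 71 held a summit (93.3% and 94.7%), beside 37.9% and 41.1% of all genes of those lengths and 54.8% and 57.7% by length and GC. Of 207 genes for extensins and proline-rich proteins, which build the cell wall, 158 and 164 did (76.3% and 79.2%), beside 41.8% and 45.3% by length and 56.1% and 59.1% by length and GC. Of 261 pentatricopeptide repeat genes, whose products act on organelle RNA, 74 and 86 did (28.4% and 33.0%), beside 45.4% and 49.3% by length and 58.7% and 63.1% of genes of the same length and GC. Annotated pseudogenes held one in 2334 and 2369 of 3911 (59.7% and 60.6%), beside 56.5% and 59.1% by length and GC. Transcribed pseudogenes, a class apart, did so in 200 and 220 of 926 (21.6% and 23.8%), beside 27.2% and 29.7% by length and GC. Among 623 tRNA genes, with a median length of 72 bp, 2 held a summit in each genotype, and none of 4 annotated rRNA genes did.

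**Figure D5:**
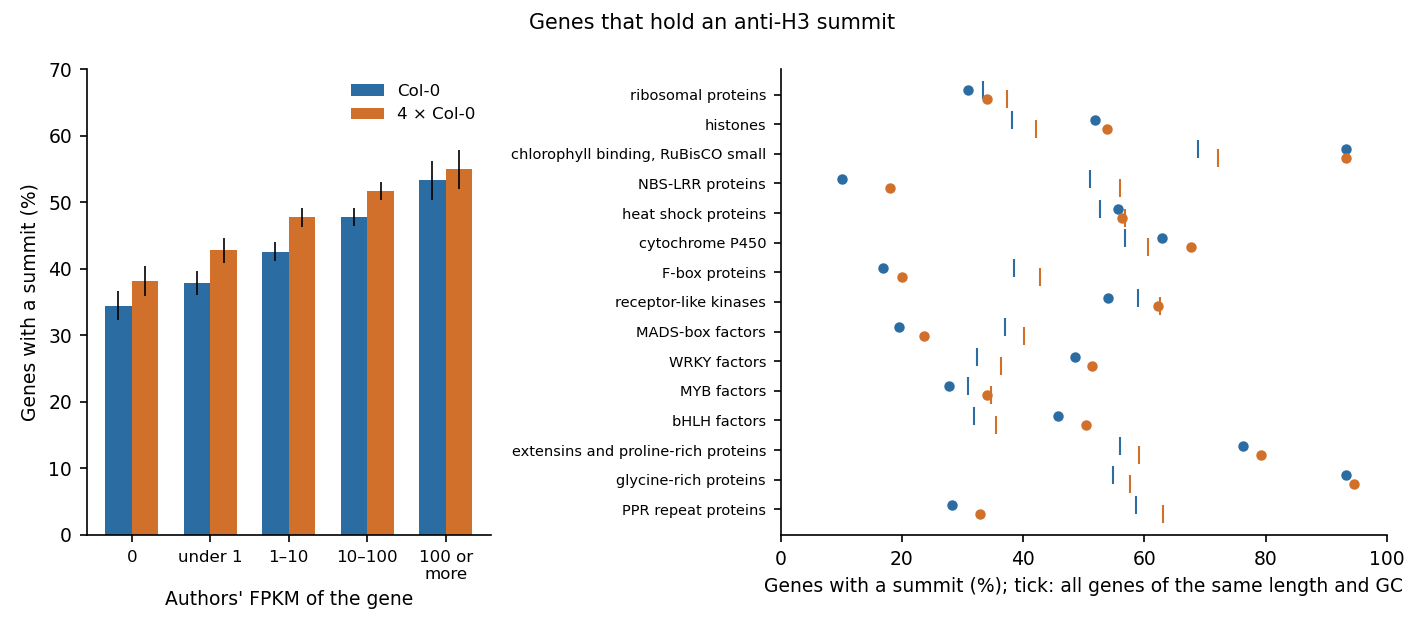
Left, share (%) of protein-coding genes of 1 to 3 kb in arms with a summit, by the authors' FPKM in the same genotype, with 95% Wilson intervals; right, share of genes of each family with a summit (points) beside all genes of the same length and GC classes (ticks), Col-0 in blue and 4 × Col-0 in orange. The left shares rise from 34.4% to 53.3% in Col-0 and from 38.2% to 55.0% in 4 × Col-0, and NBS-LRR genes are at 10.2% and 18.0% beside 51.0% and 56.0%.

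The 8 most expressed genes with a shared summit all serve photosynthesis. PSBR, a subunit of photosystem II, was listed at 16305 FPKM in Col-0 and 14743 FPKM in 4 × Col-0, and had 1 summit of fold enrichment 2.64 in Col-0 and 2 of 3.02 and 3.13 in 4 × Col-0. LHCB4.1, an antenna protein of photosystem II, had 9768 and 8029 FPKM, and a peak of 6.54 and 7.66 that covered 82.5% and 82.8% of the gene. LHB1B1 had peaks of 5.84 and 5.79 over 87.6% and 87.8% of the gene. LHCA1, of the photosystem I antenna, had 2 summits in each genotype, LHCA4 had a peak of 5.16 and 4.69, and LHCB3 one of 3.82 and 4.33. CAB3 and CAB2 had 4.09 and 4.04, and 4.00 and 3.92. CAB2 and CAB3 are near-identical neighbours, so that the reads and FPKM of either are uncertain.

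The genes with most bases under peaks were mostly annotated pseudogenes and nearly all listed at 0 FPKM. AT5G32690, a pericentromeric locus of 58519 bp, held 24 Col-0 summits over 13662 bp and 23 summits of 4 × Col-0 over 12278 bp. AT5G36935 had 5406 bp under Col-0 peaks, AT1G40101 4994 bp, AT2G01029 4756 bp and AT1G40113 4530 bp. In 4 × Col-0 the next were AT4G03650 with 4287 bp, AT5G39770, a restriction endonuclease-like gene, with 4276 bp, AT4G05585 with 4151 bp and AT3G22142 with 4078 bp. Apart from AT5G39770 and AT3G22142, which are protein-coding, these genes are annotated as pseudogenes. AT5G32690 is among 926 loci annotated as transcribed pseudogenes, which are counted apart from the 3911 other pseudogenes. The median was 0 FPKM in each of these 2 classes. Of these 9 genes, 8 were listed at 0 FPKM in both genotypes. AT3G22142 was the exception, at 12.0 FPKM in Col-0 and 7.44 FPKM in 4 × Col-0, with 92.0% and 91.8% of its body under a single peak.

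FLC, the MADS-box repressor of flowering, held 1 weak shared peak. It stood at 3.15 in Col-0 (chr5:3179107-3179383) and 3.49 in 4 × Col-0 (chr5:3179087-3179324), with summits 214 bp and 229 bp inside the gene from its start, on DNA of 55.1% and 56.5% GC. The rest of the gene of 5952 bp, which has 33.8% GC, held none. FLC was listed at 1.70 FPKM in Col-0 and 5.48 FPKM in 4 × Col-0. Stronger peaks stood on either side in both genotypes, at 3262 bp upstream of the start in Col-0 with 7.64 and at 3255 bp in 4 × Col-0 with 7.82. Past the gene end, the nearest stood at 7756 bp from the start with 8.14 and at 7765 bp with 9.02.

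The depth of the anti-H3 libraries is unknown here, since peak lists give no read totals. The label of aerial tissue was checked on 11 marker genes in the pooled FPKM. Of the green-tissue markers RBCS1A, LHCB2.1 and LHCA1 were between 6268 and 10411 FPKM, GLK1 was at 87.2 and 68.4, and LHCB1.3 was listed at 0, with near-identical neighbours that could take its reads. Of the root markers RHD6, COBL9 and WER were between 1.08 and 3.44 FPKM, and PYK10 was at 2127 and 1792 FPKM. The floral markers AP3 and AG were under 0.2 FPKM. The share of other tissues in the samples was not tested.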

How the data were processed

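ChIP-seq with an anti-H3 antibody was made from aerial parts of 10-day seedlings, with 1 library per genotype. Per the study's methods, the authors used BWA for alignment and MACS2 with default parameters for peak calling, and the labels name TAIR10. The control of the anti-H3 lists and the versions of both tools are not given in the sources used here. For each peak the deposited lists give the fold enrichment over the peak caller's background (a ratio), the −log10 of the q-value and another column, the summit offset. The deposited expression table holds 1 pooled FPKM value per gene and genotype, which the authors made from 3 RNA-seq libraries each with STAR and featureCounts. It has no error and cannot be tested. Of its genes, 98.6% matched a locus tag of TAIR10.1, but only 10584 of 33278 had the same start and end there, since the gene models are older. Names, biotypes and exon types came from TAIR10.1, and gene ends from the table. Both chromosome sets have the same lengths.

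Peaks were classed by an overlap of at least 1 bp. Summits were placed in coding exons, untranslated exons, pseudogenes, non-coding exons, introns or intergenic DNA, the first that applied. Pericentromeres were the longest run of 50 kb bins whose count of protein-coding genes, averaged over 21 neighbouring bins, was under 50% of the chromosome's median. GC was counted within 73 bp of a summit, with a common set of windows over all positions as the reference. The mitochondrial insertion was found with minimap2 2.31-r1302, from matches of at least 2000 bp. Analyses used Python 3.11.15 with numpy 2.4.6, pandas 2.3.3 and scipy 1.17.1, and the overlap functions were tested on simulated lists.

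Peaks and genes were named by rule: FLC, the 10 strongest shared peaks (by the higher genotype), the 5 strongest of each genotype only, the 5 genes with most bases under peaks in each genotype, and the 8 genes of highest Col-0 FPKM with a shared summit. The longest peaks, the densest bin, the insertion and the 6-base words were chosen after values were seen. Members and lists were chosen with earlier results of these data known. Alternatives were a q-value of 1e-05 or less, lists of equal size, stricter overlap, peak centres, other gene sets and each mark list alone. Hi-C matrices and the authors' input libraries were not used here.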

Additional observations from a re-analysis of the deposited data

How the results depend on the processing

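No paired analysis was possible because each genotype has 1 anti-H3 library and no result comes from a test. No single value changed sign, but the order of the genotypes changed in a few. Col-0 had the higher shared share in the full lists (96.3% and 88.1%) and the lower one at equal list size. Its median fold enrichment was higher in the full lists (3.61 and 3.60) and lower at the stricter q-value and at equal list size. Its log2 ratio of median FPKM was lower over all genes (1.97 and 2.21) and higher among genes of at least 1 FPKM. Its share of summits inside H3K4me3 peaks, averaged over the 2 lists, was slightly lower (28.28% and 28.31%). That share was higher without replicate 2 (29.4% and 27.2%) and with H3K4me3 peaks of q-value 1e-05 or less (26.9% and 26.8%). With an overlap of at least 50% of both peaks, 92.3% of Col-0 and 83.1% of 4 × Col-0 peaks were shared, with summits within 100 bp 88.2% and 79.4%, with a q-value of 1e-05 or less 95.3% and 89.2%, and with lists of equal size 91.0% and 91.8%. Summits inside protein-coding genes only were 65.0% and 66.3%. Summits inside pericentromeres were 24.7% and 22.7% at the stricter q-value and 16.0% and 14.9% where the limit was 25% of the median. Median lengths were 423 bp and 382 bp and median fold enrichments 3.69 and 3.70 at the stricter q-value, and 391 bp and 3.81 in 4 × Col-0 at equal list size. The log2 ratio of median FPKM was 0.66 and 0.70 for genes of 1 to 3 kb, 0.33 and 0.22 for genes of at least 1 FPKM, 1.70 in Col-0 for any overlap of 1 bp, and 1.28 in each for protein-coding genes, an alternative chosen after seeing the data. With mark peaks of q-value 1e-05 or less, 11.5% and 10.7% of summits were inside H3K27me3 peaks. Each mark list alone gave 27.1% to 29.4% (Col-0) and 27.2% to 29.4% (4 × Col-0) for H3K4me3 and 16.1% to 16.7% and 15.2% to 15.8% for H3K27me3. The GC difference to the genome, 15.2 and 15.1 percentage points, was 15.4 and 15.3 at the stricter q-value, 16.1 and 16.0 within 50 bp and 13.8 and 13.6 at peak centres. Leaving out the mitochondrial insertion, also added after seeing the data, gave 24.9% and 23.5% of summits in pericentromeres. The cause of these shifts was not tested. Without replicate libraries or read totals, peaks near the calling limit cannot be told from absent ones, and a peak of 1 genotype only is a peak not called in the other.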
